A study of Canis lupus familiaris with 34 samples.

Results

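The ligands WNT5A and WNT5B, the receptors FZD1, FZD2, ROR1 and ROR2, and the antagonists SFRP1, SFRP2, DKK1 and DKK3, all of the Wnt pathway, were examined in canine hemangiosarcoma and in the tumors and cultures profiled beside it. A gene was read through the probe sets whose annotation gives its symbol and no other. By this rule 8 of the 10 genes had a probe set of their own on the Canine_2 array, and WNT5A and FZD1 had none. The 8 genes were read by 11 of 42860 probe sets, and 15115 genes in all had a probe set of their own. SFRP2 had 3 probe sets and DKK3 had 2, and for each of these genes the probe set with the highest mean over all 34 arrays is given unless another is named.

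The study asked how hemangiosarcoma, a malignant tumor of blood vessel-forming cells, differs in gene expression from non-malignant cells of splenic hematoma and from other canine tumors. Each of the 34 arrays held RNA from a separate dog or tumor line. The 10 hemangiosarcoma lines were derived from spleen tumors and frozen as cultures at their earliest passages. They comprised 6 golden retriever lines (Frog, Journey, Tucker, ChadG4, ChadG6 and ChadG8) and 4 lines from other dogs, namely Joey (Rottweiler), DD1 (golden retriever crossed with Great Pyrenees), ChadP9 (Portuguese Water Dog) and Dal4 (Dalmatian). According to the study, Frog and Journey were related. The non-malignant group was 3 low-passage cultures from splenic hematomas of Pippin (golden retriever), Baxter (Standard Poodle) and Kylie (Keeshond). The 5 osteosarcoma lines, from golden retrievers, were also cultured cells. The 16 lymphoid tumors were primary cells and comprised 1 acute lymphoblastic leukemia (ALL), 2 chronic lymphocytic leukemias (CLL), 6 diffuse large B cell lymphomas (DLBCL), 1 marginal zone lymphoma (MZL) and 6 T-zone lymphomas (TZL). Of these dogs 15 were golden retrievers, and Rascal, with ALL, was a golden retriever mix, so that the 4 hemangiosarcoma lines of other breeds had no counterpart among them. The labels name no treatment and give no age.

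Wnt proteins are secreted, lipid-modified ligands that bind Frizzled receptors on nearby cells. In the canonical branch a Frizzled and its co-receptor LRP5 or LRP6 let β-catenin accumulate and act with TCF and LEF factors in the nucleus, whereas WNT5A and WNT5B are best known for a branch that runs through ROR1 and ROR2 and governs cell polarity and migration. Secreted frizzled-related proteins bind the ligand itself, and DKK1 blocks the LRP co-receptors. The pathway is known for roles in vessel growth and in bone formation.

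All values are log2 levels from RMA, the method with which the authors summarized each probe set, so that a difference of 1 is a doubling. The array medians lay between 5.57 and 5.77, and a level below them was taken as low. Levels of different probe sets are not comparable with one another. The cell type labels were checked against markers. Of 8 endothelial markers, KDR and ERG alone lay above the array median on at least 50% of the arrays in the hemangiosarcoma, hematoma and osteosarcoma groups. PECAM1, a defining endothelial marker, was at 3.43 to 4.0 in the hemangiosarcoma lines and at 3.41 to 3.51 in the hematoma cultures. All 8 fibroblast and mural markers were above the median in each cultured group, with list means of 10.97 to 13.21 in hemangiosarcoma, 12.72 to 13.35 in hematoma and 11.33 to 13.47 in osteosarcoma. Of 5 osteoblast markers on the array, BGLAP alone was above the median in osteosarcoma. The same was so in the pooled lymphoid tumors. The osteoblast list means of osteosarcoma, 4.77 to 5.20, lay within the lymphoid range of 4.58 to 6.40. The list thus did not set osteosarcoma apart. In lymphoid tumors the fibroblast and mural list mean was at most 7.08, except in the DLBCL Snuggles, where it was 9.02. The hybridization control, RNA added at a fixed amount, also moved with the groups. Its mean level was 8.95 to 9.54 in hemangiosarcoma, 9.15 to 9.92 in hematoma, 9.66 to 10.57 in osteosarcoma and 9.78 to 11.12 in lymphoid tumors, so that hemangiosarcoma did not overlap osteosarcoma or lymphoid tumors. As a sign of RNA quality, the log2 difference between the 3′ and 5′ actin controls was −0.07 to 1.28 in hemangiosarcoma (median 0.30), −1.01 to 0.22 in hematoma, 0.40 to 1.85 in osteosarcoma and 2.61 to 5.35 in leukemias, so that hematoma and osteosarcoma did not overlap. In DLBCL the actin difference was −0.31 to 2.95 (median 0.50), and in TZL it was −1.81 to 2.19 (median −1.42). The same difference for GAPDH had another order. It was 0.34 to 1.04 in hemangiosarcoma (median 0.54), 0.43 to 0.45 in hematoma, −0.21 to 0.55 in osteosarcoma (median 0.13) and −0.11 to 0.94 in leukemias. By GAPDH, hematoma and osteosarcoma thus overlapped. The part of these controls in the results below was not tested. B cell markers had list means of 3.97 to 4.60 in cultured cells and 6.25 to 9.79 in lymphoid tumors, and T cell markers of 4.94 to 6.94 and 8.60 to 11.94. The B cell list did not separate TZL (7.24 to 9.19) from DLBCL (8.95 to 9.79), and its means were 6.25 to 6.36 in leukemias.

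Compared with hemangiosarcoma, osteosarcoma lines had more SFRP2, DKK3 and ROR2 and less WNT5B. WNT5B in osteosarcoma and ROR2 in hemangiosarcoma were mostly below the array median, so these differences are set against low levels. The calls of DKK3 and ROR2 were lost in some alternative fits. No gene passed between hemangiosarcoma and hematoma, and SFRP2 alone passed between osteosarcoma and hematoma. That SFRP2 call was lost in 6 of 8 fits without 1 array and with all 34 arrays in 1 fit. FZD2 was higher in hemangiosarcoma than in lymphoid tumors, where WNT5B and DKK1 stayed below the array median. The plot of all 34 arrays shows each level.

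**Figure D1:**
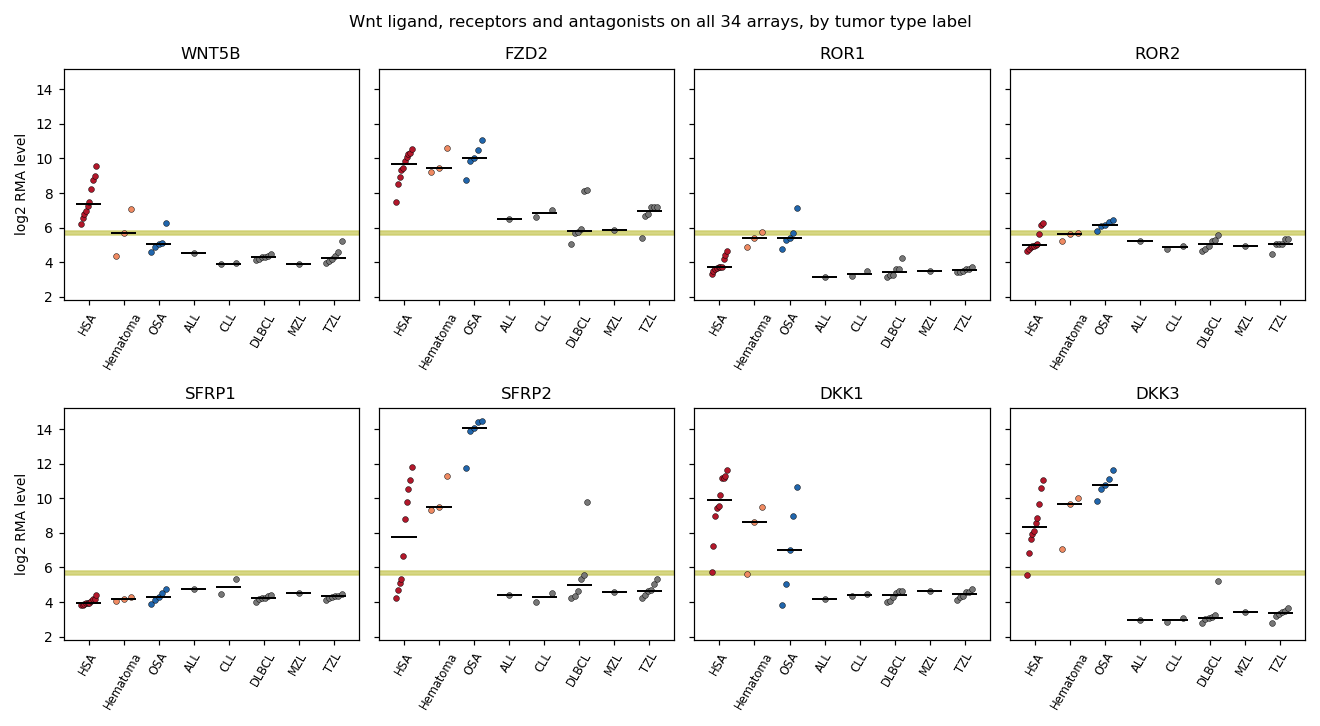
Log2 RMA level of the lead probe set of each gene (vertical axis) by tumor type label (horizontal axis; HSA, hemangiosarcoma; OSA, osteosarcoma). Each point is 1 array, the black bar is the group median and the band is the range of the array medians, 5.57 to 5.77. SFRP2 in osteosarcoma lies at 11.76 to 14.48, and SFRP1 stays below the band on all arrays.

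A probe set was tested if the number of arrays on which it exceeded the array median was no less than the size of the smaller group. Groups were compared with limma with Benjamini-Hochberg adjustment over all tested probe sets. Between hemangiosarcoma and hematoma 6 genes were tested and 0 passed at an adjusted p of 0.1 (1 had an unadjusted p under 0.05), while 0.266% of all 23292 tested probe sets passed. Between osteosarcoma and hemangiosarcoma 4 of 6 genes passed at 0.05, 3 higher and 1 lower, where 27.8% of all tested probe sets passed, 11.7% as higher and 16.1% as lower. Between osteosarcoma and hematoma 1 of 7 passed at 0.05, where 4.75% of all passed and 1.65% passed as higher. These counts are descriptions, since a gene that is low in a group meets the filter only through the other, as WNT5B and ROR2 did between osteosarcoma and hemangiosarcoma. The comparisons share arrays and are not independent of one another. Their median differences over the tested genes were −0.28, 0.74 and 0.31, beside 0.02, −0.03 and 0.01 over all tested probe sets. Each culture had a single array, and p-values measure the spread between these cultures.

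**Figure D2:**
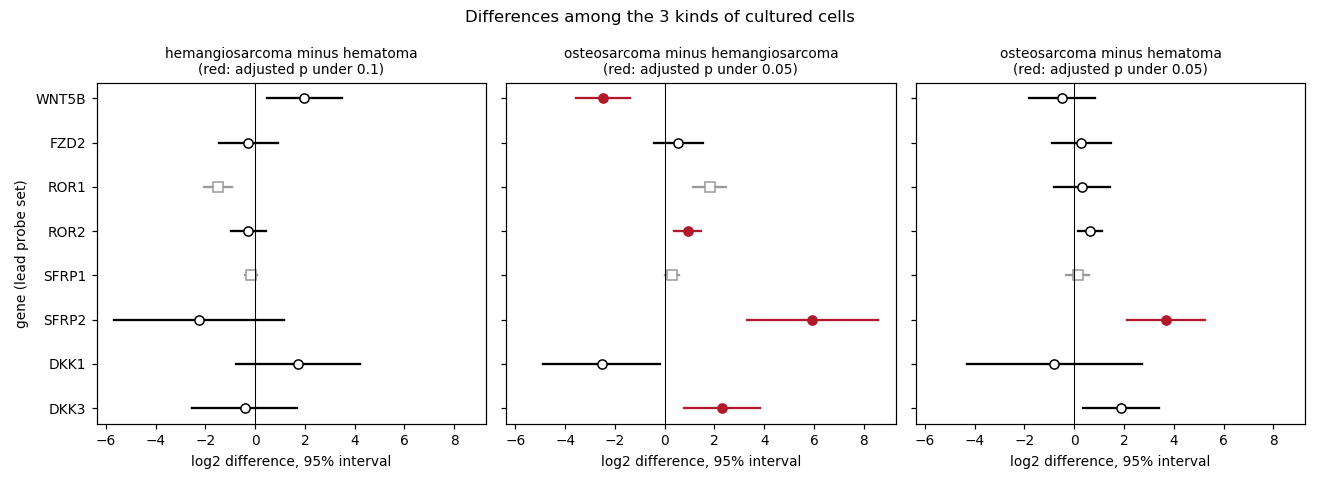
Log2 differences between the cultured groups (horizontal axes) for the lead probe set of each gene (vertical axis), with 95% intervals from limma. Filled red points passed the threshold of their comparison, open circles did not, and grey squares mark genes below the filter, whose intervals come from the fit without it. The interval for SFRP2 is wide in hemangiosarcoma against hematoma, from −5.66 to 1.16.

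WNT5B, a noncanonical ligand, was the ligand of the pair that could be read. In the hemangiosarcoma lines it was 8.23 in ChadG4, 9.56 in ChadG6, 6.95 in ChadG8, 7.47 in Frog, 6.79 in Journey, 6.54 in Tucker, 6.20 in Joey, 8.77 in DD1, 7.25 in ChadP9 and 8.96 in Dal4. The hematoma cultures had 4.36 in Pippin, 5.66 in Baxter and 7.05 in Kylie. The osteosarcoma lines had 4.58 in OSCA20, 6.28 in OSCA23, 5.06 in OSCA59, 4.89 in OSCA75 and 5.13 in OSCA71. The ligand was thus above the array median in every hemangiosarcoma line and in 1 of 5 osteosarcoma lines, OSCA23, which was the single one to reach into the hemangiosarcoma range. Osteosarcoma was lower than hemangiosarcoma by a log2 difference of −2.48 (SE 0.51, limma adjusted p = 0.0026). WNT5B was below the array median in 4 of the 5 osteosarcoma lines, so the size is set against a low level. The gene could meet the filter through the hemangiosarcoma lines alone. The call held in all alternative fits, with no filter too (adjusted p = 0.0041). Against hematoma the hemangiosarcoma lines differed by 1.98 (SE 0.71, 95% interval 0.46 to 3.50, limma adjusted p = 0.407), and 6 of the 10 lines exceeded the highest hematoma, Kylie. The difference did not pass, which does not show that the groups are alike, and with all 34 arrays in 1 fit it did (adjusted p = 0.0929). Osteosarcoma and hematoma overlapped, at −0.50 (SE 0.59, limma adjusted p = 0.609).

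FZD2, a Frizzled receptor, was above the array median in all cultured cells and did not pass between any pair of cultured groups. It ranged from 7.5 in Joey to 10.57 in ChadG4 in hemangiosarcoma (median 9.65). It was 9.22 in Pippin, 9.42 in Baxter and 10.63 in Kylie. In osteosarcoma it was 10.04 in OSCA20, 9.84 in OSCA23, 10.51 in OSCA59, 11.04 in OSCA75 and 8.74 in OSCA71. The 3 groups overlapped. The hemangiosarcoma minus hematoma difference was −0.27 (95% interval −1.46 to 0.91, limma adjusted p = 0.886) and the osteosarcoma minus hemangiosarcoma difference was 0.55 (95% interval −0.44 to 1.54, limma adjusted p = 0.404).

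ROR1, a receptor tyrosine kinase for WNT5 ligands, was low in hemangiosarcoma, at 3.33 to 4.64 with a median of 3.70, and was above its array median in 0 of the 10 lines. It was 5.72 in Pippin, 4.89 in Baxter and 5.42 in Kylie. The osteosarcoma lines had 5.30 in OSCA20, 4.74 in OSCA23, 5.40 in OSCA59, 5.67 in OSCA75 and 7.15 in OSCA71. Every hematoma and osteosarcoma value lay above every hemangiosarcoma value, a separation that 1.55% and 5.98% of the tested probe sets showed in the respective comparisons. Since ROR1 was above the median in 1 hematoma and 2 osteosarcoma arrays, it fell below the filter against hemangiosarcoma and was not tested in the main comparisons. With no filter, and against a low level, the osteosarcoma minus hemangiosarcoma difference was 1.81 (limma adjusted p = 0.0013), and hemangiosarcoma minus hematoma was −1.50 (limma adjusted p = 0.0685). The study's signature of hemangiosarcoma against hematoma, chosen on these same arrays, includes ROR1, so the last value is not independent evidence. Osteosarcoma and hematoma differed by 0.31 (SE 0.49, limma adjusted p = 0.720), with OSCA71 the only line above the hematoma range.

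ROR2, the sister receptor, lay close to the array median. The hemangiosarcoma lines ranged from 4.67 in Joey to 6.28 in DD1 (median 4.98), and ChadG8 (6.15) and DD1 alone were above their array medians. The hematoma cultures had 5.24 in Pippin, 5.68 in Baxter and 5.61 in Kylie. The osteosarcoma lines had 6.13 in OSCA20, 6.08 in OSCA23, 6.43 in OSCA59, 6.34 in OSCA75 and 5.79 in OSCA71. All 5 osteosarcoma lines were above the hematoma range and above 8 of the 10 hemangiosarcoma lines. ROR2 was higher in osteosarcoma than in hemangiosarcoma by 0.92 (SE 0.26, limma adjusted p = 0.0166). Array weights ended this call (0.68, adjusted p = 0.0900), and it held with no filter (adjusted p = 0.0208). ROR2 could meet the filter through the osteosarcoma lines alone, so the size is set against a low level. The only probe set of ROR2 is one that can match several transcripts. Against hematoma the osteosarcoma difference of 0.64 (SE 0.22) did not pass (limma adjusted p = 0.110; 0.0433 with array weights), although the groups did not overlap, as was so for 20.1% of tested probe sets. Hemangiosarcoma minus hematoma was −0.28 (SE 0.33, limma adjusted p = 0.786).

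Among the antagonists, SFRP1, a secreted frizzled-related protein, was at 3.84 to 5.33 and below the array median on all 34 arrays, and was not tested in any comparison.

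SFRP2, its relative that binds Wnt ligands outside the cell, gave the largest difference of these genes between cultured groups. The osteosarcoma lines had 14.07 in OSCA20, 13.90 in OSCA23, 14.43 in OSCA59, 14.48 in OSCA75 and 11.76 in OSCA71. The hematoma cultures had 9.51 in Pippin, 9.32 in Baxter and 11.32 in Kylie. The hemangiosarcoma lines had 8.79 in ChadG4, 9.78 in ChadG6, 10.53 in ChadG8, 6.69 in Frog, 5.33 in Journey, 11.03 in Tucker, 4.70 in Joey, 11.82 in DD1, 4.22 in ChadP9 and 5.11 in Dal4. The hemangiosarcoma lines thus ran from below the array median in Journey, Joey, ChadP9 and Dal4 to the level of the lowest osteosarcoma line in DD1. Osteosarcoma was higher than hemangiosarcoma by 5.93 (SE 1.24, limma adjusted p = 0.0029), in part against those low levels. It was higher than hematoma by 3.68 (SE 0.69, limma adjusted p = 0.0315), or 12.8-fold. Osteosarcoma and hematoma did not overlap, as was so for 20.1% of tested probe sets in that comparison. The second probe set of SFRP2 gave 5.73 against hemangiosarcoma (limma adjusted p = 0.0055) and 3.38 against hematoma (limma adjusted p = 0.0301). The third was low in hemangiosarcoma (mean 3.59) and hematoma (mean 4.04) and met the filter through osteosarcoma (mean 9.12), so its differences of 5.53 and 5.08 are descriptions. The call against hematoma was lost with all 34 arrays in 1 fit (adjusted p = 0.0698) and in 6 of 8 fits that left out 1 array, with an adjusted p of up to 0.110: without Pippin, Baxter, Kylie, OSCA23, OSCA59 or OSCA75. The hemangiosarcoma minus hematoma difference, −2.25 (SE 1.58, limma adjusted p = 0.647), was smaller than the spread among the hemangiosarcoma lines (SD 2.90, n = 10).

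DKK1, which blocks LRP5 and LRP6, was high in most hemangiosarcoma lines. It was 10.19 in ChadG4, 11.66 in ChadG6, 11.18 in ChadG8, 11.15 in Frog, 9.57 in Journey, 9.45 in Tucker, 7.24 in Joey, 11.29 in DD1, 5.76 in ChadP9 and 9.01 in Dal4. The hematoma cultures had 9.50 in Pippin, 8.64 in Baxter and 5.62 in Kylie. The osteosarcoma lines had 10.66 in OSCA20, 7.04 in OSCA23, 8.96 in OSCA59, 5.05 in OSCA75 and 3.84 in OSCA71. Both cultured tumor types thus held lines near or below the array median, and the groups overlapped. Osteosarcoma minus hemangiosarcoma was −2.54 (SE 1.11, limma adjusted p = 0.0989), which did not pass. It did pass with array weights (adjusted p = 0.0453), with all 34 arrays in 1 fit (0.0310), with golden retriever lines only (−3.42, adjusted p = 0.0445), without ChadP9 (0.0416) and without OSCA20 (0.0254). Hemangiosarcoma minus hematoma was 1.73 (SE 1.15, limma adjusted p = 0.630) and osteosarcoma minus hematoma was −0.81 (SE 1.55, limma adjusted p = 0.771).

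DKK3, a divergent Dickkopf family member, was high in all osteosarcoma lines: 10.76 in OSCA20, 11.14 in OSCA23, 11.66 in OSCA59, 9.82 in OSCA75 and 10.54 in OSCA71. The hemangiosarcoma lines had 8.12 in ChadG4, 11.03 in ChadG6, 9.68 in ChadG8, 7.95 in Frog, 6.86 in Journey, 8.55 in Tucker, 10.62 in Joey, 7.66 in DD1, 8.84 in ChadP9 and 5.58 in Dal4. The hematoma cultures had 7.07 in Pippin, 9.68 in Baxter and 9.99 in Kylie. ChadG6 and Joey reached the osteosarcoma range, and Dal4 was below its array median. Osteosarcoma was higher than hemangiosarcoma by 2.29 (SE 0.72, limma adjusted p = 0.0266), 4.90-fold, but the other probe set of DKK3 gave 1.16 and did not pass (limma adjusted p = 0.114). The call was also lost without OSCA23 (adjusted p = 0.0597) or without OSCA59 (0.0748). Osteosarcoma minus hematoma was 1.87 (SE 0.67, limma adjusted p = 0.124; 0.0460 with array weights), and hemangiosarcoma minus hematoma was −0.43 (SE 0.98, limma adjusted p = 0.901).

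The next comparison set the 10 hemangiosarcoma lines against the 16 lymphoid tumors. In lymphoid tumors WNT5B was at 3.88 to 5.22 (median 4.25), DKK1 at 4.0 to 4.77 (median 4.41) and FZD2 at 5.06 to 8.15 (median 6.63). WNT5B and DKK1 did not overlap between the groups, while FZD2 in the DLBCL Cooper (8.11) and Chieftain (8.15) exceeded the lowest hemangiosarcoma line, Joey. WNT5B and DKK1 were above the array median on 0 of the 16 lymphoid arrays and FZD2 on 14. The filter asked for 10 arrays, which WNT5B and DKK1 met through the hemangiosarcoma lines alone, so their direction was fixed by the filter. All 3 tested genes were higher in hemangiosarcoma at an adjusted p of 0.001, where 20.2% of tested probe sets were, and this count is a description. FZD2, measured above the median in both groups, differed by 2.92 (SE 0.35, limma adjusted p = 6.50e-08). Against the low lymphoid levels DKK1 differed by 5.25 and WNT5B by 3.40, and with no filter both passed (limma adjusted p = 2.81e-10 and 1.73e-10).

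The other 5 genes fell below the filter in that comparison, and their values are given as descriptions. DKK3 was at 2.76 to 3.67 in 15 lymphoid tumors and at 5.20 in Snuggles, all below the lowest hemangiosarcoma line, Dal4 (5.58). It missed the filter because Dal4 fell below its array median, and its difference was 5.20. The other probe set of DKK3 met the filter and passed with 1.40 (limma adjusted p = 1.42e-04). SFRP2 was at 5.55 or less in 15 lymphoid tumors, similar to the lowest hemangiosarcoma lines, and at 9.79 in Snuggles. ROR1 in lymphoid tumors (3.13 to 4.25) and ROR2 (4.47 to 5.55) overlapped hemangiosarcoma. Groups without overlap, as for DKK1, DKK3 and WNT5B, made up 13.6% of tested probe sets. Since the lymphoid tumors were primary cells and the hemangiosarcomas cultured lines, culture and tumor type cannot be told apart, nor can fewer cells of a type and less RNA per cell in any of these bulk samples.

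Within the lymphomas FZD2 was the only gene tested between TZL and DLBCL. Its median was 6.97 in TZL and 5.82 in DLBCL, and the groups overlapped, with a difference of 0.28 (95% interval −0.86 to 1.43, limma adjusted p = 0.791). Thus 0 of 1 gene passed in limma (0 at an unadjusted p under 0.05), where 18.5% of tested probe sets passed at 0.05. In order of group medians, FZD2 in osteosarcoma, hemangiosarcoma and hematoma overlapped, and all 3 lay apart from the TZL range. WNT5B medians fell from hemangiosarcoma to hematoma to osteosarcoma, each overlapping the next. Osteosarcoma (4.58 to 6.28) did not overlap DLBCL, the next group by median, but did overlap TZL (3.98 to 5.22). ROR1 in hematoma and osteosarcoma overlapped, and neither overlapped hemangiosarcoma, whose range met that of TZL.

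Several of the genes varied widely among the hemangiosarcoma lines. The SD among the 10 lines was 2.90 for SFRP2, 1.92 for DKK1, 1.66 for DKK3, 1.14 for WNT5B and 0.95 for FZD2. Of 24373 probe sets above the array median on at least 3 cultured arrays, 99.95% had a smaller SD than SFRP2, 99.3% than DKK1, 98.7% than DKK3, 95.9% than WNT5B and 93.8% than FZD2. ROR2 (0.58), ROR1 (0.42) and SFRP1 (0.18) varied less. SFRP2 ran from 4.22 in ChadP9, below its array median, to 11.82 in DD1, and DKK1 from 5.76 in ChadP9, near the median, to 11.66 in ChadG6. The SFRP2 spread was seen by more than 1 probe set, since the second probe set correlated with the lead at r = 0.999 and the third at r = 0.835 over the 10 lines. The DKK3 probe sets correlated at r = 0.922. These are descriptions over probe sets that can share transcripts.

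**Figure D3:**
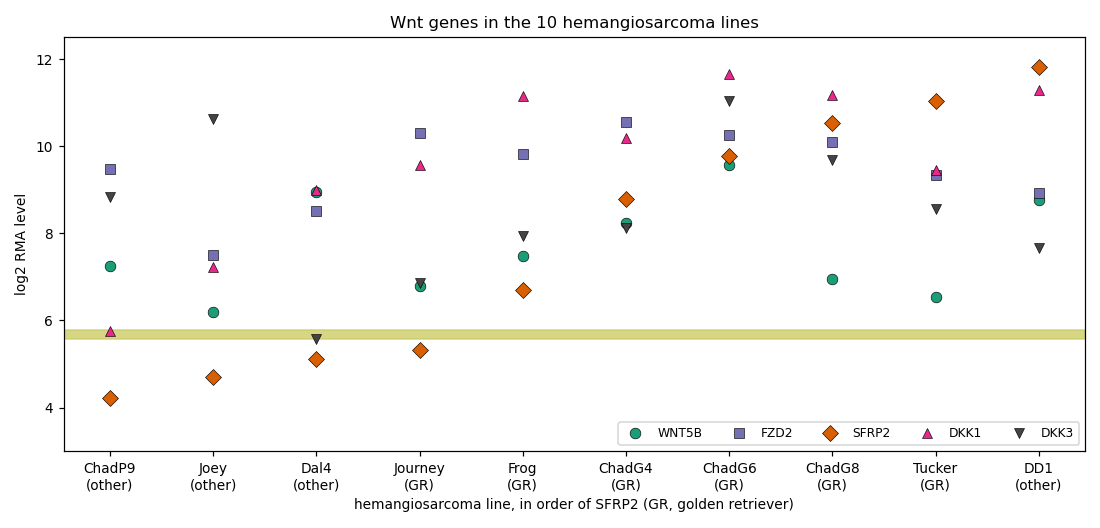
Log2 RMA level (vertical axis) of 5 Wnt genes in each hemangiosarcoma line, ordered along the horizontal axis by SFRP2; the band is the range of the array medians. SFRP2 runs from 4.22 in ChadP9 to 11.82 in DD1, and DKK1 is lowest in ChadP9 and Joey.

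No single order of the lines held over all of these genes. Dal4 had high WNT5B (8.96) with low SFRP2 (5.11) and DKK3 (5.58), whereas Tucker had low WNT5B (6.54) with high SFRP2 (11.03). Joey had the lowest FZD2 and WNT5B of all lines and the second highest DKK3. Among 28 gene pairs over the 10 lines, 0 passed by Pearson correlation after adjustment (permutation test, 100000 resamples, two-sided). The pair SFRP2 and DKK1 gave r = 0.72 and rho = 0.76 (permutation adjusted p = 0.200 and 0.190), and r was 0.61 without the 2 lines farthest from the median. The pair ROR2 and SFRP2 gave r = 0.74 and rho = 0.73 (permutation adjusted p = 0.200 and 0.190), and r was 0.53 without the 2 lines farthest from the median. The pair ROR2 and DKK1 gave rho = 0.89 (permutation adjusted p = 0.0316) and r = 0.66 (permutation adjusted p = 0.348). ROR2 was above the array median in 2 of the 10 lines, so its order rests mostly on low levels.

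By breed, 0 of 5 tested genes passed between the 6 golden retriever lines and the 4 other lines (limma, adjusted p of 0.1), and 2 had an unadjusted p under 0.05; 0% of all 22206 tested probe sets passed. FZD2 was 9.34 to 10.57 in golden retriever lines and 7.5 to 9.47 in the others, which overlapped through Tucker and ChadP9. Its difference was 1.46 (SE 0.36, limma adjusted p = 0.999). DKK1 was 9.45 to 11.66 in golden retriever lines and 5.76 to 11.29 in the others, a difference of 2.21 (SE 0.92, limma adjusted p = 0.999). The intervals, 0.67 to 2.26 for FZD2 and 0.18 to 4.24 for DKK1, are unadjusted for the number of probe sets.

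The named genes whose levels ran most like each gene over the 10 hemangiosarcoma lines were ranked by Pearson correlation among 17192 probe sets, as a description. For WNT5B they were RDH11 (r = 0.949), FOSL2 (0.896) and HMGCS1 (0.890). For FZD2 they were SLC27A1 (0.912), ELOVL4 (0.894) and WDFY4 (0.892). For SFRP2 they were RTN4 (0.945), PRADC1 (0.891) and NDUFC1 (0.890), for DKK1 PGGHG (0.947), LOC609874 (0.923) and SPATC1L (0.923), and for DKK3 WDR91 (0.970), PTP4A1 (0.938) and TAP2 (0.871). With 10 arrays and so many probe sets, high values arise for any gene.

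Beyond these genes, 81 other Wnt pathway genes were listed, of which 80 were on the array. Between hemangiosarcoma and hematoma 35 were tested and 0 passed (limma; 1 at an unadjusted p under 0.05). Between osteosarcoma and hemangiosarcoma 5 of 35 were higher and 1 was lower, beside 11.7% higher and 16.1% lower among all tested probe sets. AXIN2, a feedback target of canonical signaling that itself dampens it, was 6.32 to 7.09 in osteosarcoma and 5.40 to 6.07 in hemangiosarcoma. The groups did not overlap, as was so for 5.98% of tested probe sets, and differed by 0.95 (SE 0.16, limma adjusted p = 6.00e-04). LRP5, the co-receptor that DKK1 blocks, was 6.76 to 9.43 in osteosarcoma and 4.64 to 7.43 in hemangiosarcoma and differed by 2.13 (SE 0.45, limma adjusted p = 0.00297). The ligand WNT3 (0.47), the receptor FZD8 (0.34) and the cadherin CELSR1 (0.33) also passed, but the WNT3 call was lost with all 34 arrays in 1 fit (adjusted p = 0.0514), the FZD8 call in 3 and the CELSR1 call in 11 of 15 fits without 1 array. FZD8 gave 0.11 (adjusted p = 0.401) when probe sets that can match several transcripts were left out. PRICKLE1, a planar polarity protein, was lower in osteosarcoma, with a difference of −1.77 (SE 0.47, limma adjusted p = 0.0121), a call lost with golden retriever lines only (−1.57, adjusted p = 0.0501).

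Against hematoma, osteosarcoma had higher AXIN2 alone among 36 tested genes, by 1.03 (SE 0.22, limma adjusted p = 0.0408), with hematoma at 5.63 to 5.88. That call was lost in 7 of 8 fits that left out 1 array, all but the one without OSCA20, with an adjusted p of up to 0.143.

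Against lymphoid tumors, 7 of 35 genes were higher in hemangiosarcoma and 3 were lower, beside 20.2% and 18.4% of all tested probe sets. WLS, which carries Wnt proteins to the cell surface, was 10.37 to 12.30 in hemangiosarcoma and 3.66 to 8.50 in lymphoid tumors and differed by 5.87 (SE 0.44). PRICKLE1 (4.09), the receptor RYK (3.38), LGR4, a receptor for R-spondins (2.62), DAAM1 (2.0) and CTNNB1, which encodes β-catenin (1.91), were also higher. LEF1, a nuclear partner of β-catenin, was lower, at 3.39 to 4.56 against 3.81 to 10.60 in lymphoid tumors (−3.60, SE 0.79, limma adjusted p = 3.17e-04), and so were ZNRF3 (−1.24) and AXIN1 (−0.71). The LEF1 call was lost with golden retriever lines only (adjusted p = 0.0065) and without ChadG4 and Dal4 (0.0011), and the ZNRF3 call with golden retriever lines only (−1.21, adjusted p = 0.0065). LEF1 lay below the array median in all hemangiosarcoma lines and LGR4 was at 4.28 to 5.72 in lymphoid tumors. These differences are thus set against low levels. LEF1 could meet the filter only through lymphoid tumors, and LGR4 could meet it through the hemangiosarcoma lines alone. The direction of LEF1 was thus fixed by the filter, and both differences are descriptions. In DLBCL other than Chieftain, LEF1 was at 3.81 to 5.25, which overlapped hemangiosarcoma. The lymphoid medians of WLS (5.65) and PRICKLE1 (5.64) lay within the range of the array medians. Their differences are thus also set in part against low levels, and both could meet the filter through the hemangiosarcoma lines alone. Within the lymphomas LEF1 was 9.41 to 10.58 in TZL and 3.81 to 7.36 in DLBCL, without overlap (7.76% of tested probe sets), a difference of 5.03 (SE 0.51, limma adjusted p = 2.41e-05). In DLBCL only Chieftain (7.36) was above the array median, and the next array, Snuggles, had 5.25. LEF1 could thus meet the filter through TZL alone, and its difference is a description against low levels. Between TZL and DLBCL the T cell list moved with LEF1, with means of 11.36 to 11.94 in TZL and 9.26 to 10.04 in DLBCL, without overlap. In CLL its means were 11.14 to 11.52, where LEF1 was 7.87 and 10.60. The ALL went the other way, with a T cell mean of 9.18, below every DLBCL, and LEF1 of 7.82, above every DLBCL. The part of the T cell list in the LEF1 difference was not tested. LEF1 was 1 of 5 genes of 36 tested that were higher in TZL, beside 9.32% of all, with ZNRF3 (1.24), RNF43 (0.69), CTNNB1 (0.68) and RYK (0.56). The calls of RNF43, CTNNB1 and RYK were lost in 6, 7 and 10 of 12 fits without 1 array. No gene of the list was lower in TZL.

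**Figure D4:**
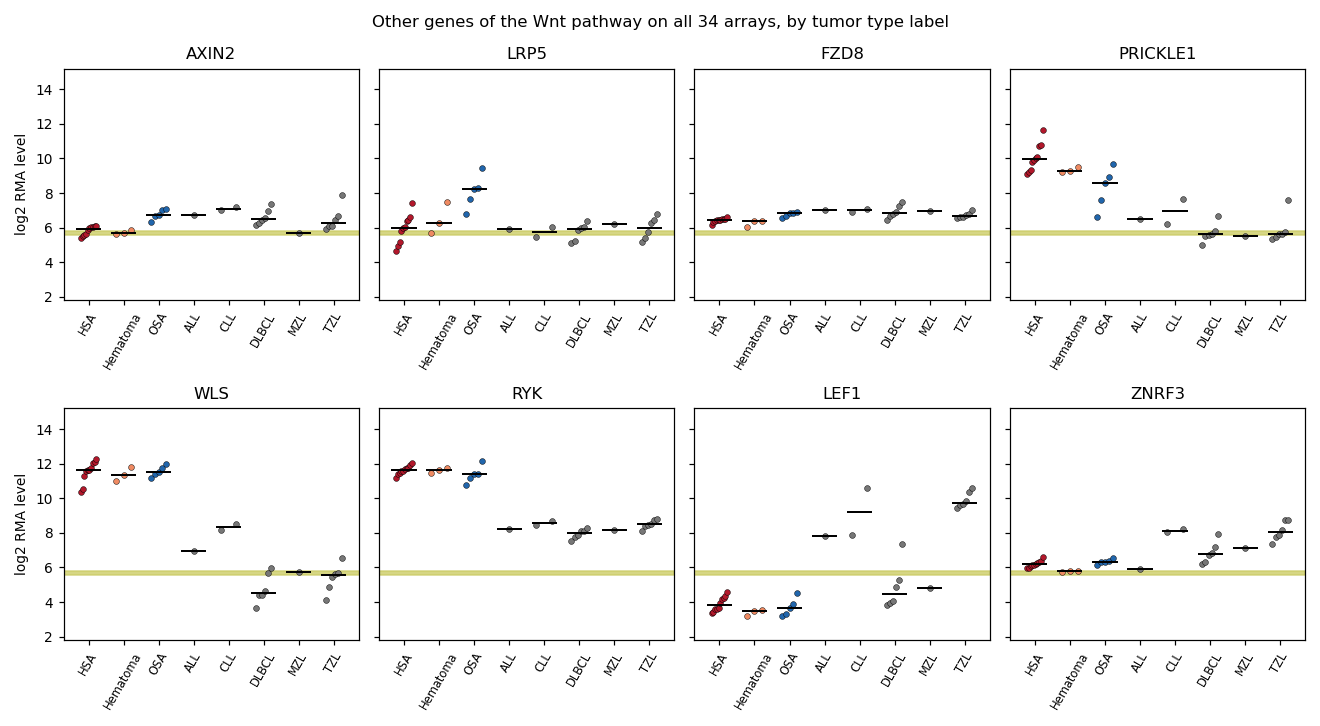
Log2 RMA level (vertical axis) of 8 other Wnt pathway genes by tumor type label (horizontal axis); each point is 1 array, the black bar is the group median and the band is the range of the array medians. AXIN2 in osteosarcoma (6.32 to 7.09) lies above hemangiosarcoma (5.40 to 6.07), and LEF1 is high in T-zone lymphoma (9.41 to 10.58).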

How the data were processed

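Canine_2 arrays of 34 cultures and primary tumors were used as deposited. The deposited log2 values are those the authors obtained by RMA (affy package); versions are not given in the sources used here, nor is whether all arrays went through 1 run. Values ranged from 2.03 to 14.98, and no further normalization was applied. The number of arrays limits the precision. Of 43035 probe sets, 175 controls were left out. Symbols came from the platform annotation: 29254 probe sets had 1 symbol, 439 several and 13167 none, and only those with 1 were named. Arrays were grouped by their labels. The sample that the study ran on 2 chips could not be told from the labels, and the highest correlation between arrays, 0.985, was between ChadG8 and DD1.

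Each comparison was fitted on its own arrays with limma 3.58.1 (lmFit, eBayes) in R 4.3.3, with Benjamini-Hochberg adjustment over all tested probe sets. The thresholds were 0.1 for hematoma and breed, 0.05 for osteosarcoma and between lymphomas, and 0.001 for lymphoid tumors. The code was tested on simulated data. Correlations used 100000 permutations (scipy 1.17.1, Python 3.11.15), and figures matplotlib 3.10.9. Named were all 10 genes, of the other listed Wnt genes up to 3 per role and comparison among those that passed with the largest differences, the 3 nearest genes of each, and markers that bear on a result. The genes, lists and tests were chosen with earlier results of these data known. Alternatives were no filter, centering, quantile normalization, a trend with robust prior, array weights, all 34 arrays in 1 fit, another lead probe set, no probe sets that can match several transcripts, golden retriever lines only, golden retriever as a covariate, lymphomas only, and leaving out each array. Leaving out ChadG4 with Dal4, which an earlier grouping of these arrays set apart, was added after seeing the data.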

Additional observations from a re-analysis of the deposited data

Results flagged for a closer look

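Of 32 gene and group combinations with 4 to 10 arrays, 5 held an array far from the rest of its group by Dixon's test, which chance alone does for about 1 in 20. In the DLBCL Snuggles, DKK3 was 5.20 where the next array had 3.23 (gap over range 0.815), and SFRP2 was 9.79 where the next had 5.55 (gap over range 0.763). The fibroblast and mural markers of Snuggles had a mean of 9.02, against at most 7.08 in the other 15 lymphoid tumors, and the part of these markers in both values was not tested. The osteosarcoma OSCA71 had SFRP2 of 11.76 where the next line had 13.90 (gap over range 0.788). In TZL, Rose had FZD2 of 5.40 where the next array had 6.64 (gap over range 0.684), and Thunder had ROR2 of 4.47 where the next had 5.03 (gap over range 0.633).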

How the results depend on the processing

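The SFRP2 and WNT5B differences between osteosarcoma and hemangiosarcoma kept their direction and their call in all alternatives run. So did that of FZD2 between hemangiosarcoma and lymphoid tumors. WNT5B was mostly below the array median in osteosarcoma, so its difference is set against a low level. The number of genes that passed moved to 1 for hemangiosarcoma against hematoma with no filter (ROR1) and with all 34 arrays in 1 fit (WNT5B), to 3 with array weights and 0 with all 34 arrays for osteosarcoma against hematoma, and to 5 with golden retriever lines only for hemangiosarcoma against lymphoid tumors. It moved less for osteosarcoma against hemangiosarcoma, to 5 with no filter (ROR1), with all 34 arrays or with golden retriever lines only (DKK1). It was 3 without probe sets that can match several transcripts, because the only probe set of ROR2 is of this kind. ROR2 was thus not tested in that setting. For hemangiosarcoma against lymphoid tumors the number moved to 4 in 4 settings through DKK3. Without 1 array it was 3 to 5 for osteosarcoma against hemangiosarcoma, 0 to 1 for osteosarcoma against hematoma, 3 to 4 for hemangiosarcoma against lymphoid tumors, and 0 to 0 elsewhere. Differences that never passed changed sign in places, and the cause was not tested. For hemangiosarcoma against hematoma FZD2 became 0.31 with golden retriever lines only and ran from −0.54 to 0.16 without 1 array, and DKK3 became 0.018 with array weights and ran from −1.35 to 0.11. For osteosarcoma against hemangiosarcoma FZD2 became −0.034 with golden retriever lines only. For osteosarcoma against hematoma, array weights gave 0.21 for WNT5B, which ran from −1.17 to 0.18 without 1 array, and −0.17 for ROR1, and DKK1 ran from −1.96 to 0.0079. Between breeds, WNT5B became 0.049 with array weights and ran from −0.74 to 0.18, and DKK3 ran from −0.34 to 1.34. No paired analysis was possible because the labels give no shared replicate numbers. With 3 hematoma arrays, differences to that group have wide intervals, and a probe set near the array median is weakly measured.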
